A study of Homo sapiens with 12 samples.

Results

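Interferon-stimulated genes encode proteins that limit the replication and release of viruses, and 47 of them were followed here in lung cancer cells treated with inhibitors of the epidermal growth factor receptor (EGFR). Members were taken by symbol alone, as the rows of the deposited gene table whose name matched a written list, and the rule uses no measured value. All 47 were found among 60591 genes, and all 47 were among the 19108 genes that passed the expression filter. Polyadenylated RNA of PC9 and H1650 cells was sequenced to ask whether the transcriptional response to EGFR inhibition differs between a line that dies upon treatment and one that does not. PC9 and H1650 are established human non-small cell lung cancer lines with the same activating EGFR deletion, and every library is labelled wild type. In each line 2 libraries came from cells in 0.1% DMSO collected at 0 h, when drug was added (T0), 2 from cells after 36 h in 10 µM erlotinib, a reversible EGFR inhibitor, and 2 from cells after 36 h in 0.1 µM osimertinib, a covalent inhibitor made for mutant EGFR.

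Library totals ran from 17961765 to 26346187 counts. Levels are given as CPM, the counts per 1000000 counts of a library after scaling of the library sizes, and a level of 3 counts corresponded to 0.116 to 0.168 CPM. Tests are edgeR quasi-likelihood tests with Benjamini-Hochberg adjustment over all 19108 genes, and "rose" or "fell" is written only where the adjusted p was under 0.05. No vehicle library at 36 h was analysed here, so that the drug and the time in culture cannot be told apart in any comparison with T0. The study describes the 2 libraries of a group as biological replicates, but the labels do not say whether they came from separate cultures, and where they did not, p-values measure only the spread between these libraries. As in any bulk sample, a lower share of expressing cells and less RNA per cell cannot be told apart.

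Type I and type III interferons bind receptors at the cell surface that carry the kinases JAK1 and TYK2, which phosphorylate transcription factors of the STAT family. STAT2 and IRF9 are parts of the resulting complex ISGF3, which enters the nucleus and binds the interferon-stimulated response element (ISRE) in the promoters of its target genes. Interferon gamma signals instead to the gamma-activated site (GAS). Many of the same genes can also be transcribed at a low level in cells to which no interferon was added, and tumour cell lines differ widely in that level.

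The promoters of the members were searched for both elements to show what these genes have in common beyond the name. The search covered the 250 bases before each annotated RefSeq start (GRCh38.p14) on both strands, with the ISRE core taken as GAAA, 2 bases of any kind and GAAA, and the GAS core as TTCNNNGAA. RefSeq windows were matched by symbol for 38 of the 47 members. The ISRE core was present in 26 of these 38 genes (68.4%), beside 1014 of all 27305 genes with a window (3.71%). The GAS core was present in 11 of the 38 (28.9%) and in 8.09% of all genes, and 7 ISRE matches in member windows, counted per window, overlapped a GAS match. No entry was matched for IFIT2, OAS2, OASL, MX2, GBP2, USP18, IFITM2, LAMP3 and TRIM22.

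**Figure D1:**
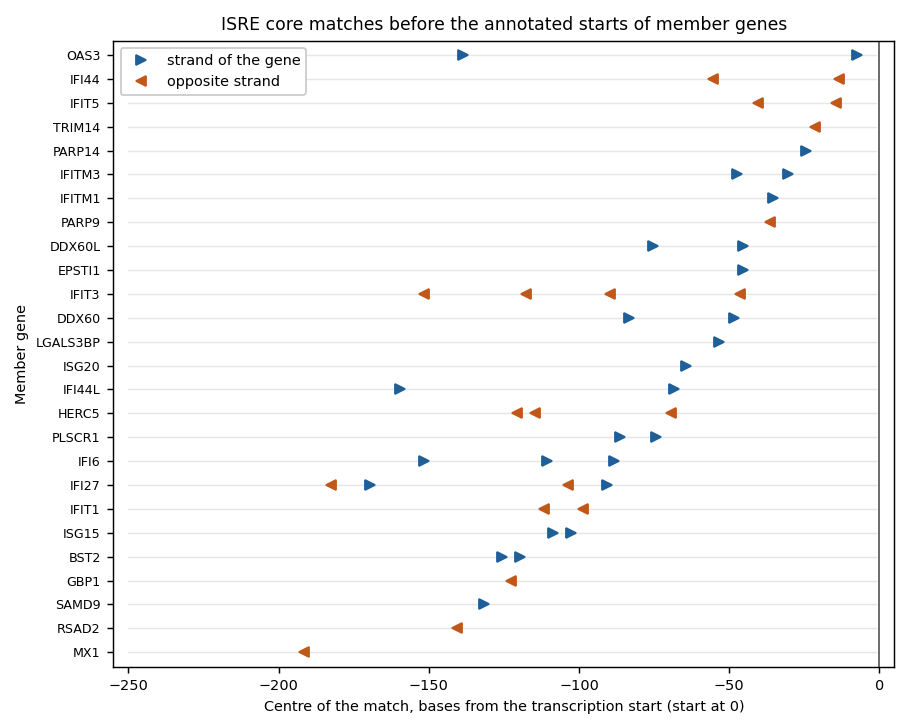
Positions of ISRE core matches before the annotated starts of member genes. Each point is the centre of a match, placed by its distance in bases from the start at 0. Of 47 matches in member windows, counted per window, 26 lay within 100 bases of the start.

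Of 47 matches in member windows 26 lay within 100 bases of the start, as the plot of match positions shows. A site that lay in several windows of a gene was counted in each. The 12 members with a window and no match were OAS1, GBP3, UBE2L6, HERC6, CMPK2, DTX3L, SAMD9L, TRIM21, SP100, SP110, IFI35 and XAF1. All 6 members with a window in the group of membrane and endoplasmic reticulum proteins (the IFITM proteins, BST2, IFI6, IFI27 and PLSCR1) held the ISRE core, and all 3 IFIT genes with a window did, whereas 1 of 4 TRIM and nuclear body genes did. These 6 stretches belong to members whose levels are described below and show how the element is placed, with ISRE cores in capitals. They were chosen by outcome, as those with the largest mean fitted log2 change over the drug comparisons with T0. DDX60L, GBP1, OAS3 and TRIM14 are also described below and held the core, but had smaller means and are not shown. All are written on the + strand of GRCh38.p14, which is the strand of these genes, so that a core on the other strand reads as TTTC, 2 bases and TTTC. IFITM1 lies at chr11:313970-314039, IFI44L at chr1:78620254-78620414, IFIT1 at chr10:89392477-89392559, IFI27 at chr14:94110598-94110680, RSAD2 at chr2:6877602-6877671 and ISG15 at chr1:1013354-1013429.
IFITM1: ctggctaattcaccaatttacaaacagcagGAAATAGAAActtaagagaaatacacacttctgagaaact
IFI44L: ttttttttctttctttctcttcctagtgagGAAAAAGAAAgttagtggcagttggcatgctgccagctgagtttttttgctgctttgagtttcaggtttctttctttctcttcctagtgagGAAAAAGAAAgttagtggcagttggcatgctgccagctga
IFIT1: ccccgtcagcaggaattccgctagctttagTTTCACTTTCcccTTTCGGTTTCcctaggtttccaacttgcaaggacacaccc
IFI27: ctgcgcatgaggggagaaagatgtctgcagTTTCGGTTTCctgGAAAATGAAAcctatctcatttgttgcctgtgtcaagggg
RSAD2: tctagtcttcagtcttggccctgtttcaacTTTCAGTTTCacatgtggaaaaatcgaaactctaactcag
ISG15: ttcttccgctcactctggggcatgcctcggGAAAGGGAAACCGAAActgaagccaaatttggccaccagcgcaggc
The IFI44L stretch holds the same core in a repeated block, IFIT1 and IFI27 hold a pair of cores set close together, and in ISG15 overlapping cores form one run. A match is a description of the letters and shows no binding.

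The members lie on 16 chromosomes, and 30 of the 47 sit in 12 clusters of neighbouring members (GENCODE 29 on GRCh38). The 4 IFIT genes span chromosome 10 from 89283694 to 89421001, OAS1, OAS3 and OAS2 span chromosome 12 from 112906777 to 113011723, and IFITM2, IFITM1 and IFITM3 span chromosome 11 from 307631 to 327537. Exon bases are shared with another gene by 18 members, 7 of them on the same strand, and the strandedness of the counting is not given in the sources used here. IFITM1 and IFITM2 share 351 exon bases and are near-identical in sequence, as is IFITM3, so that reads of these 3 genes could be split between them. TRIM22 shares 642 bases with the olfactory receptor gene OR56B1, GBP2 shares 621 bases with GBP7 and, on the opposite strand, TRIM14 shares 422 bases with NANS. The largest overlaps, also on the opposite strand, are those of XAF1 with PRAL (2535 bases) and of SP110 with AC009950.1 (1262 bases).

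At T0 the members were far higher in H1650 than in PC9. Of the 47 members, 43 were higher in H1650, 1 was lower and 3 did not pass the test, beside 35.8% of all tested genes higher, 33.8% lower and 69.6% in either direction. The median log2 difference between H1650 and PC9 was 2.66 over the members and 0.04 over all tested genes. The members took 0.113% and 0.114% of the counts in the PC9 T0 libraries and 0.420% to 0.472% in those of H1650. A level of 10 CPM was reached by 41 members in each H1650 T0 library and by 16 in each PC9 T0 library.

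**Figure D2:**
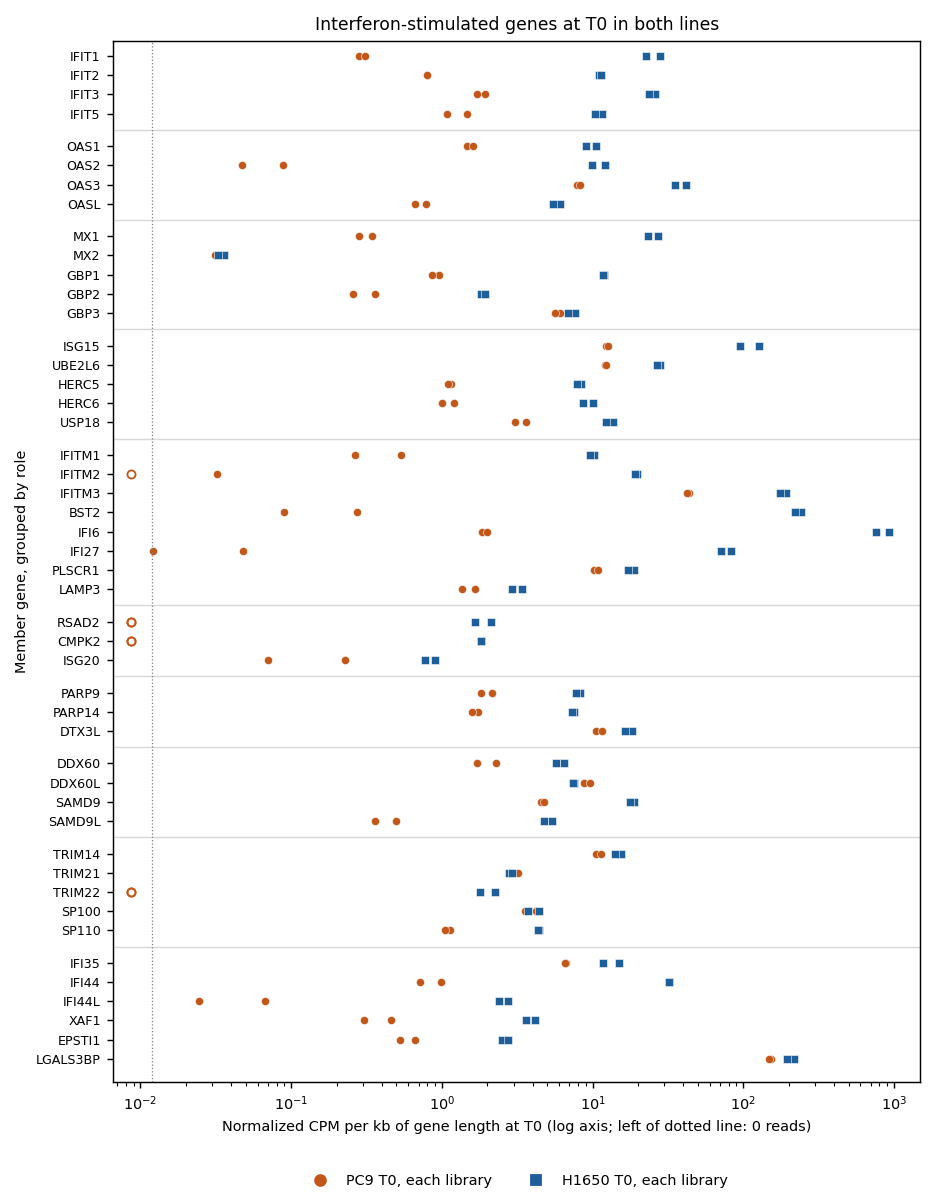
Level of each member at T0 in PC9 and H1650, in normalized CPM per kb of gene length on a log axis, with members grouped by role and genes without reads set left of the dotted line. Points of H1650 lie to the right of those of PC9 for nearly all members, with MX2, TRIM21, SP100 and DDX60L near each other.

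Among the members that differed widely were membrane proteins that PC9 barely transcribed. By the fitted values the 4 largest differences, at a mean of at least 1 CPM, were those of IFI27, TRIM22, RSAD2 and CMPK2. TRIM22, RSAD2 and CMPK2 are no membrane proteins of this group and are given below. IFI27, a small interferon-induced protein of mitochondrial and nuclear membranes, gave 0.0504 and 0.197 CPM in the PC9 T0 libraries (1 and 4 reads) and 343 and 294 CPM in those of H1650. BST2, the tetherin that holds budding virions at the cell surface, gave 0.302 and 0.0987 CPM in PC9 and 266 and 242 CPM in H1650. IFITM2, which blocks the fusion of viruses in endosomes, had 0 and 1 read in PC9 and 30.2 and 29.6 CPM in H1650. Each of these genes therefore separated the lines completely, and the log2 difference was 11.25 ± 0.20 (SE, adjusted p = 2.06e-26) for IFI27 and 10.27 ± 0.17 (adjusted p = 1.04e-26) for BST2. For IFITM2 the ratio of the pooled counts was 1199, with a 95% counting interval from 215 to 47386, as it rests on 1 read in PC9.

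Genes without reads at T0 were found only in PC9. TRIM22, a ubiquitin ligase that restricts retroviral transcription, RSAD2, the radical enzyme viperin that makes a chain-terminating nucleotide, and CMPK2, a mitochondrial nucleotide kinase encoded next to RSAD2, had 0 reads in both PC9 T0 libraries. In H1650 these genes had 578, 415 and 373 reads over both T0 libraries, which set the H1650 level at least 80.7-fold (TRIM22), 59.2-fold (RSAD2) and 52.6-fold (CMPK2) higher than a PC9 level of 3 counts in each library. In all, 4 and 3 members were at 0 reads in the PC9 T0 libraries and none in any H1650 library.

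Per length, the order of levels within a line also differed. In PC9 the highest T0 level belonged to LGALS3BP, a secreted glycoprotein, with 149.7 CPM per kb, followed by IFITM3 with 43.1, ISG15 with 12.5 and UBE2L6 with 12.2 CPM per kb, and the libraries of ISG15 and UBE2L6 overlapped. In H1650 the order began with IFI6, an endoplasmic reticulum protein that protects against viral remodelling of that membrane, at 846 CPM per kb, followed by BST2 at 231, LGALS3BP at 206, IFITM3 at 184 and ISG15 at 111, each without overlap with the next. MX2, a GTPase of the nuclear pore that blocks lentiviruses, was among the lowest in both lines, with 0.0326 CPM per kb in PC9 and 0.0343 in H1650. LGALS3BP alone made up 39.4% to 43.6% of the summed CPM of the members in the PC9 libraries. Without LGALS3BP and IFI6 the summed level was 670 and 711 CPM at T0, 944 and 1027 CPM after erlotinib and 1191 and 1239 CPM after osimertinib in PC9.

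DDX60L, MX2, TRIM21 and SP100 stood outside the general difference between the lines. MX2, TRIM21 and SP100 did not differ at T0 beyond the spread, with log2 differences of 0.07 (95% interval -0.92 to 1.05), -0.09 (-0.43 to 0.24) and 0.06 (-0.12 to 0.25). TRIM21 is a cytosolic antibody receptor and SP100 a component of nuclear bodies. DDX60L, a relative of the helicase DDX60, gave 107 and 116 CPM in PC9 and 91.6 and 90.0 CPM in H1650, and its level was lower in H1650 by a log2 difference of -0.30 ± 0.08 (adjusted p = 0.00138).

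Most members rose against T0 in both lines after 36 h in either drug. In PC9 after erlotinib 30 members rose, 6 fell and 11 did not pass the test, where 32.7% of all tested genes rose, 29.1% fell and 61.8% changed in either direction. In PC9 after osimertinib 35 rose, 4 fell and 8 did not pass, where again 32.7% of all genes rose, 28.7% fell and 61.4% changed. In H1650 44 members rose with each drug, 1 fell and 2 did not pass, while 18% (erlotinib) and 17.8% (osimertinib) of all genes rose, 18.5% and 17.9% fell, and 36.5% and 35.7% changed. The same T0 libraries served both drugs of a line, so that the counts for both drugs share their controls. A few of these calls depended on 1 library, with the adjusted p given for the library left out. In PC9 with erlotinib the calls of BST2 and TRIM21 were lost without T0 replicate 2 (0.333 and 0.142) or erlotinib replicate 2 (0.141 and 0.132), and that of GBP3 was lost without any of 8 libraries (0.0561 to 0.488). SP100 was lost in PC9 with osimertinib without T0 replicate 1 (0.0712), and ISG20 in H1650 with erlotinib without T0 replicate 2 (0.136) or erlotinib replicate 2 (0.123).

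The sizes of the changes were moderate for most members. The median log2 change was 0.68 in PC9 after erlotinib, 1.29 in PC9 after osimertinib, 0.91 in H1650 after erlotinib and 1.18 in H1650 after osimertinib, with medians over all tested genes between 0.00 and 0.07. With TRIM22 set at its count bound and RSAD2 and CMPK2 left out, the PC9 medians were 0.72 and 1.01 over 45 members. Leaving out osimertinib replicate 1 lowered the PC9 osimertinib median to 0.99. The summed level of all members was not tested. In PC9 it went from 1191 and 1218 CPM at T0 to 1674 and 1718 CPM after erlotinib and 1987 and 2078 CPM after osimertinib. In H1650 it went from 4827 and 4267 CPM to 8744 and 8585 CPM and to 11464 and 10245 CPM. In each line all 4 treated libraries lay above both T0 libraries.

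**Figure D3:**
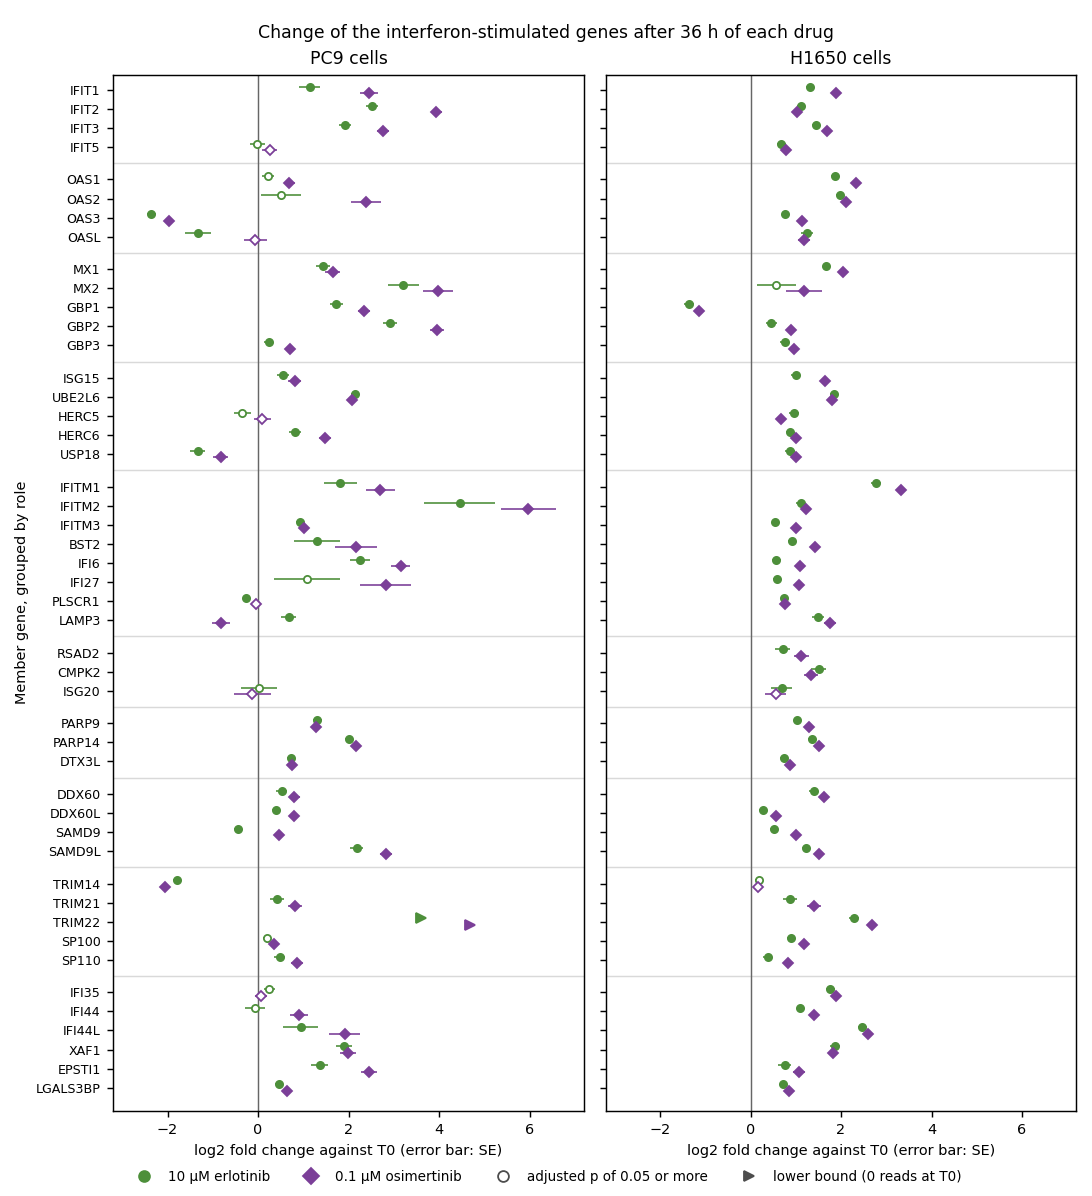
The log2 change of each member after 36 h of erlotinib or osimertinib against T0, with its standard error, in PC9 (left) and H1650 (right), members grouped by role. In H1650 all but GBP1 lie to the right of 0, while in PC9 OAS3 and TRIM14 lie far to the left with both drugs.

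The IFIT proteins bind viral RNA ends or block its translation. IFIT1, IFIT2 and IFIT3 rose in both lines with both drugs, and IFIT5 rose in H1650 but did not pass the test in PC9. IFIT1 had 1.31 and 1.43 CPM at T0 in PC9, 2.82 and 3.24 CPM after erlotinib and 7.82 and 7.12 CPM after osimertinib. In H1650 it had 129 and 105 CPM at T0, 295 and 285 CPM after erlotinib and 459 and 410 CPM after osimertinib. The groups followed the order T0, erlotinib, osimertinib without overlap in both lines, although every H1650 library lay far above every PC9 library. Its log2 changes were 1.15 ± 0.23 (adjusted p = 0.000104) with erlotinib and 2.44 ± 0.20 (adjusted p = 1.82e-11) with osimertinib in PC9 and 1.31 ± 0.09 (adjusted p = 1.41e-12) with erlotinib and 1.89 ± 0.09 (adjusted p = 1.03e-15) with osimertinib in H1650.

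IFIT2 had the steepest course of the family in PC9. It went from 3.23 and 3.26 CPM at T0 to 17.6 and 19.4 CPM after erlotinib and 47.5 and 52.5 CPM after osimertinib. The osimertinib libraries of PC9 thereby lay above the H1650 T0 libraries, which had 44.8 and 46.6 CPM. In H1650 IFIT2 reached 94.4 and 104 CPM after erlotinib and 97.7 and 87.3 CPM after osimertinib, with overlap between the drugs. The annotated gene AL353751.1 shares 356 exon bases with IFIT2 on the same strand.

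The enzymes OAS1, OAS2 and OAS3 make the second messenger that activates RNase L. Together with OASL, of the same family, these genes behaved differently in the lines. In PC9 none of the 4 rose with erlotinib and OAS3 and OASL fell, while with osimertinib OAS1 and OAS2 rose and OAS3 fell. In H1650 all 4 rose with both drugs. OAS3 in PC9 had 64.0 and 67.4 CPM at T0, 12.1 and 13.4 CPM after erlotinib and 17.6 and 15.9 CPM after osimertinib. In H1650 it rose from 339 and 287 CPM to 518 and 547 CPM after erlotinib and to 705 and 666 CPM after osimertinib. The drug libraries thus lay entirely below T0 in PC9 and entirely above it in H1650. Its log2 changes were -2.36 ± 0.10 (adjusted p = 4.85e-18) with erlotinib and -1.97 ± 0.10 (adjusted p = 1.98e-16) with osimertinib in PC9, against 0.77 ± 0.08 (adjusted p = 6.95e-09) with erlotinib and 1.13 ± 0.08 (adjusted p = 5.1e-12) with osimertinib in H1650.

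OAS1 and OAS2, the neighbours of OAS3 in the genome, moved the other way from it in PC9 with osimertinib. OAS1 had 7.31 and 7.996 CPM at T0, 8.02 and 9.84 CPM after erlotinib and 12.5 and 12.2 CPM after osimertinib in PC9, and 52.4 and 44.7, 179 and 174, and 252 and 232 CPM in the same order in H1650. OAS2 had 0.555 and 0.296 CPM, 0.448 and 0.742 CPM, and 2.22 and 2.24 CPM in PC9, from 11 and 6 reads at T0, and 75.4 and 62.1, 264 and 273, and 309 and 287 CPM in H1650. The erlotinib and T0 libraries of OAS2 overlapped in PC9, where its log2 change of 0.51 ± 0.44 did not pass the test (adjusted p = 0.326). In H1650 its log2 changes were 1.97 ± 0.09 (adjusted p = 6.02e-16) and 2.12 ± 0.09 (adjusted p = 2.08e-16). The erlotinib change of OAS1 in PC9, 0.23 ± 0.13 (adjusted p = 0.133), passed the test with upper quartile scaling (0.0322) and without erlotinib replicate 1 (0.0371). OAS1 rose in H1650 by log2 1.86 ± 0.09 (adjusted p = 1.68e-15) and 2.32 ± 0.09 (adjusted p = 3.35e-17).

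Among the large GTPases of the dynamin superfamily, MX1, MX2, GBP1, GBP2 and GBP3 all rose in PC9 with both drugs. MX1, which traps viral nucleocapsids in the cytoplasm, rose in PC9 from 2.97 and 2.42 CPM to 7.12 and 7.496 CPM and to 8.51 and 8.35 CPM, and in H1650 from 235 and 202 CPM to 720 and 672 CPM and to 932 and 858 CPM. MX2 and GBP2 were the members with the largest called changes in PC9 after TRIM22 and IFITM2. MX2 rose in PC9 from 0.403 and 0.444 CPM to 3.81 and 4.14 CPM after erlotinib and 7.12 and 6.33 CPM after osimertinib. In H1650 it had 0.466 and 0.424 CPM at T0, 0.619 and 0.698 CPM after erlotinib and 1.05 and 0.980 CPM after osimertinib. At T0 the lines were alike in MX2, and after treatment every PC9 library lay above every H1650 library. The log2 change was 3.21 ± 0.34 (adjusted p = 4.08e-09) with erlotinib and 3.97 ± 0.33 (adjusted p = 2.75e-11) with osimertinib in PC9, and 0.57 ± 0.43 (adjusted p = 0.335) with erlotinib and 1.18 ± 0.40 (adjusted p = 0.0208) with osimertinib in H1650, where the osimertinib call was lost without any one of the 4 libraries it compares (adjusted p 0.0578 to 0.112).

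GBP2, a guanylate-binding protein that acts on the membranes around intracellular pathogens, rose in PC9 from 1.87 and 2.62 CPM to 16.3 and 17.5 CPM after erlotinib and 35.2 and 34.5 CPM after osimertinib. In H1650 it started higher, at 13.1 and 14.01 CPM, and reached 17.5 and 19.6 CPM and 25.0 and 25.4 CPM. The order of the lines was thus reversed after osimertinib. The log2 changes of GBP2 were 2.91 ± 0.16 (adjusted p = 3.08e-15) with erlotinib and 3.95 ± 0.15 (adjusted p = 1.09e-18) with osimertinib in PC9, beside 0.46 ± 0.12 (adjusted p = 0.00323) with erlotinib and 0.89 ± 0.12 (adjusted p = 6.35e-07) with osimertinib in H1650. The H1650 erlotinib call was lost without erlotinib replicate 2 (adjusted p = 0.0609).

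GBP1, of the same family, was the only member that fell in H1650 and rose in PC9. It had 4.69 and 4.20 CPM at T0 in PC9, 14.5 and 14.9 CPM after erlotinib and 23.1 and 21.9 CPM after osimertinib. In H1650 it had 57.5 and 57.3 CPM at T0, 21.9 and 22.6 CPM after erlotinib and 29.4 and 23.0 CPM after osimertinib. After osimertinib the ranges of both lines met at about the same level, although T0 levels were far apart. GBP1 rose by log2 1.73 ± 0.14 (adjusted p = 2.18e-11) with erlotinib and 2.34 ± 0.14 (adjusted p = 1.68e-14) with osimertinib in PC9, and its log2 change in H1650 was -1.36 ± 0.11 (adjusted p = 6.03e-11) and -1.13 ± 0.10 (adjusted p = 1.55e-09).

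**Figure D4:**
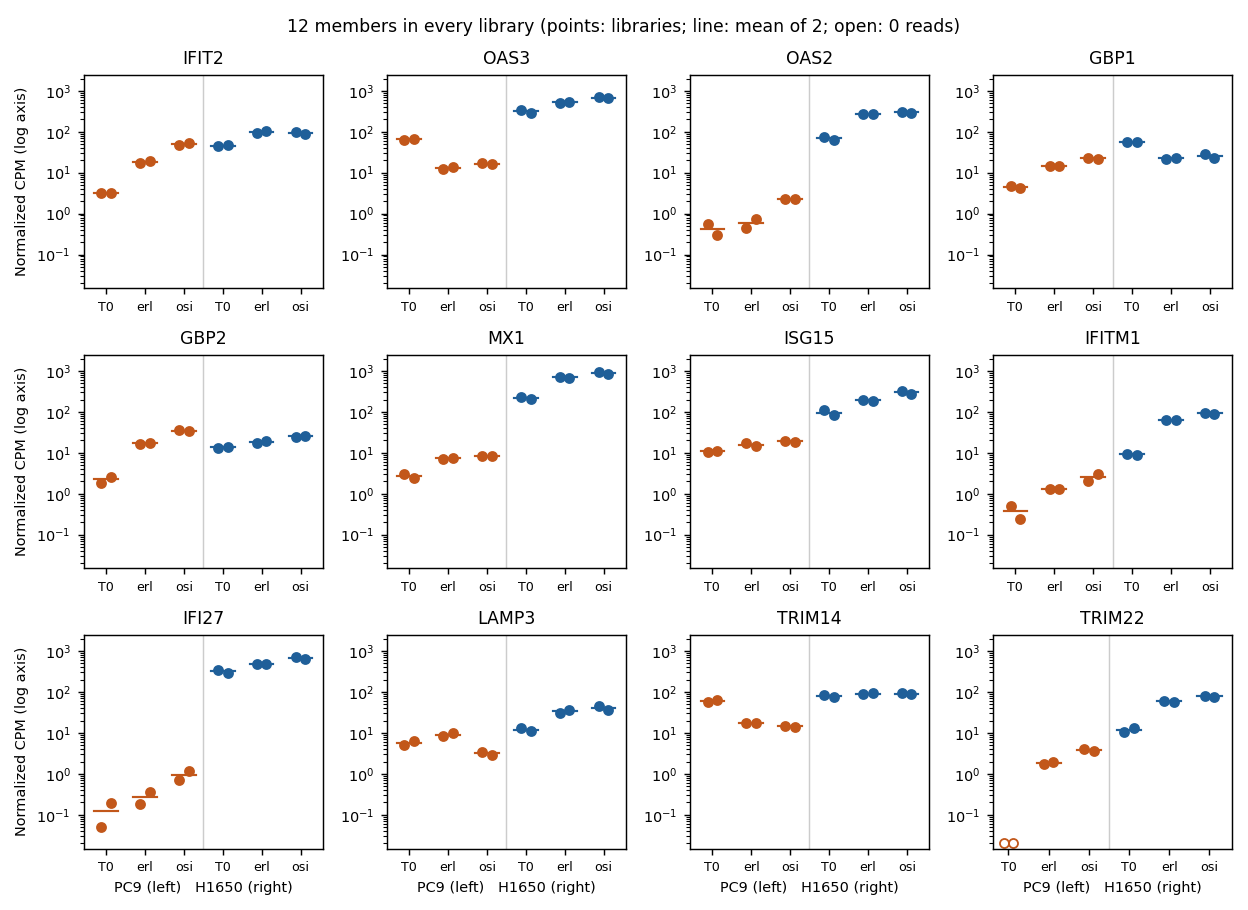
Levels of 12 members in every library, in normalized CPM on a log axis, for T0, erlotinib (erl) and osimertinib (osi) in PC9 (left) and H1650 (right). Points are libraries, lines are means of 2 and open points mark 0 reads, and the drugs lie below T0 for OAS3 and TRIM14 on the PC9 side and for GBP1 on the H1650 side.

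ISG15 is a ubiquitin-like protein that is joined to other proteins by UBE2L6, its conjugating enzyme, and by the ligase HERC5. It is removed by the protease USP18, which also damps signalling at the interferon receptor. HERC6 is a relative of HERC5 that lies next to it in the genome. In H1650 all 5 genes rose with both drugs. In PC9 ISG15, UBE2L6 and HERC6 rose with both, HERC5 did not pass the test and USP18 fell. ISG15 had 10.6 and 11.1 CPM at T0 in PC9, 17.5 and 14.4 CPM after erlotinib and 19.6 and 18.3 CPM after osimertinib. In H1650 it had 110 and 82.8 CPM, 199 and 186 CPM, and 325 and 275 CPM in the same order. Treated libraries lay above T0 in both lines, and the log2 changes were 0.55 ± 0.14 (adjusted p = 0.00114), 0.81 ± 0.14 (adjusted p = 1.12e-05), 1.00 ± 0.10 (adjusted p = 7.35e-09) and 1.64 ± 0.10 (adjusted p = 6.66e-13).

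UBE2L6 and USP18, the writer and the eraser of the modification, moved in opposite directions in PC9. UBE2L6 rose from 24.8 and 25.4 CPM to 107 and 113 CPM after erlotinib and 96.6 and 116 CPM after osimertinib, a log2 change of 2.14 ± 0.09 (adjusted p = 1.99e-17) and 2.08 ± 0.09 (adjusted p = 3.46e-17). USP18 went from 6.76 and 5.73 CPM to 2.64 and 2.30 CPM and to 3.61 and 3.42 CPM, a log2 change of -1.34 ± 0.17 (adjusted p = 1.31e-07) and -0.82 ± 0.17 (adjusted p = 0.000115). In H1650 UBE2L6 rose by 1.84 and 1.80 and USP18 by 0.87 and 1.01 on the log2 scale.

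The 8 membrane and endoplasmic reticulum proteins all rose in H1650 with both drugs, and 6 of them rose in PC9 with each. IFITM1, which blocks viral entry at the cell surface, had the largest change of any member in H1650. It rose there from 9.61 and 8.99 CPM to 63.9 and 63.7 CPM after erlotinib and 96.1 and 91.0 CPM after osimertinib, by log2 2.78 ± 0.11 (adjusted p = 8.67e-17) with erlotinib and 3.33 ± 0.11 (adjusted p = 5.58e-18) with osimertinib. In PC9 it had 0.504 and 0.247 CPM at T0 (10 and 5 reads), 1.34 and 1.33 CPM after erlotinib and 2.03 and 2.97 CPM after osimertinib. The groups did not overlap between T0 and either drug in PC9, and the log2 changes were 1.82 ± 0.36 (adjusted p = 7.62e-05) and 2.70 ± 0.32 (adjusted p = 3.2e-08).

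IFITM2 and IFI27 started from almost no reads in PC9. IFITM2 gave 0 and 0.0494 CPM at T0, 0.627 and 0.703 CPM after erlotinib and 2.13 and 1.68 CPM after osimertinib, and its pooled count ratios to T0 were 26.8 (95% counting interval 4.47 to 1090) and 77.2 (13.4 to 3090). In H1650 it rose from 30.2 and 29.6 CPM to 71.1 and 58.1 CPM and to 69.4 and 70.6 CPM. IFI27 gave 0.179 and 0.351 CPM after erlotinib and 0.694 and 1.18 CPM after osimertinib in PC9, and its erlotinib libraries overlapped T0. Its log2 change in PC9 was 1.09 ± 0.73 (adjusted p = 0.2) with erlotinib and 2.82 ± 0.56 (adjusted p = 8.84e-05) with osimertinib. In H1650 IFI27 rose to 477 and 475 CPM and to 706 and 630 CPM, by log2 0.58 ± 0.08 (adjusted p = 2.84e-06) and 1.07 ± 0.08 (adjusted p = 7.17e-11).

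LAMP3, a lysosomal membrane protein, moved in opposite directions with the drugs in PC9, as did SAMD9. It had 5.14 and 6.27 CPM at T0, 8.47 and 9.80 CPM after erlotinib and 3.47 and 2.92 CPM after osimertinib, without overlap between the 3 groups. The log2 change was 0.68 ± 0.16 (adjusted p = 0.000713) with erlotinib and -0.83 ± 0.20 (adjusted p = 0.00062) with osimertinib. In H1650 it rose from 12.9 and 10.9965 CPM to 30.9 and 36.3 CPM and to 44.4 and 36.3 CPM. PLSCR1, a phospholipid scramblase that restricts viral entry, fell in PC9 with erlotinib by 0.26 on the log2 scale (adjusted p = 0.0089), a call that was lost without T0 replicate 2 or erlotinib replicate 1 (adjusted p = 0.0874 and 0.056) and under upper quartile scaling (0.0684).

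RSAD2 and CMPK2 stayed at the limit of detection in PC9, with 0 reads in all T0 and erlotinib libraries and 2 reads each in osimertinib replicate 1, so that no fold could be given there. In H1650 RSAD2 had 9.93 and 7.79 CPM at T0, 15.1 and 13.8 CPM after erlotinib and 19.8 and 18.7 CPM after osimertinib. CMPK2 had 7.88 and 7.87 CPM, 22.3 and 22.4 CPM, and 22.1 and 17.6 CPM. Both rose in H1650, RSAD2 by log2 0.71 ± 0.17 (adjusted p = 0.00162) and 1.12 ± 0.17 (adjusted p = 6.45e-06), CMPK2 by 1.51 ± 0.16 (adjusted p = 3.4e-08) and 1.33 ± 0.16 (adjusted p = 2.62e-07). ISG20, an exonuclease that degrades viral RNA, had 0.504 to 1.63 CPM in all PC9 libraries and did not pass the test there.

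PARP9, PARP14 and DTX3L, which act together in ADP-ribosylation and ubiquitylation, rose in both lines with both drugs. PARP14 rose in PC9 from 17.8 and 16.4 CPM to 64.0 and 74.0 CPM and to 76.1 and 76.6 CPM, and in H1650 from 77.3 and 74.97 CPM to 196 and 195 CPM and to 230 and 203 CPM. PC9 after treatment thus came to about the level at which H1650 started. PARP9 and DTX3L share 217 exon bases on opposite strands. Of the DDX60 and SAMD9 genes, relatives of RNA helicases and translational restriction factors, DDX60, DDX60L and SAMD9L rose in all 4 comparisons and SAMD9 in 3. DDX60L went in H1650 from 91.6 and 90.0 CPM to 104 and 115 CPM after erlotinib and 137 and 130 CPM after osimertinib, and its erlotinib call there (log2 0.27 ± 0.08, adjusted p = 0.00653) was lost without erlotinib replicate 2 (adjusted p = 0.122). SAMD9 fell in PC9 with erlotinib, from 31.1 and 32.6 CPM to 23.4 and 23.2 CPM, and rose with osimertinib to 40.9 and 46.4 CPM.

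TRIM22 and TRIM14, of the tripartite motif family, stood near the extremes of the list in PC9. TRIM22 had 0 reads in both PC9 T0 libraries, 1.70 and 1.91 CPM after erlotinib (38 and 49 reads) and 3.98 and 3.70 CPM after osimertinib (86 and 66 reads). Against 3 counts in each T0 library the erlotinib level was at least 12.1-fold and the osimertinib level at least 25.6-fold higher, and OR56B1, which shares exon bases with it, had 0 reads. In H1650 TRIM22 rose from 10.7 and 13.4 CPM to 61.9 and 56.9 CPM and to 79.9 and 75.9 CPM, by log2 2.29 ± 0.11 (adjusted p = 8.18e-15) and 2.68 ± 0.11 (adjusted p = 4.06e-16).

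TRIM14, a mitochondrial adaptor in antiviral signalling, had 58.1 and 62.2 CPM at T0 in PC9, 17.0 and 17.6 CPM after erlotinib and 14.9 and 14.1 CPM after osimertinib. In H1650 it had 84.2 and 76.9 CPM at T0, 90.8 and 92.3 CPM after erlotinib and 93.4 and 87.4 CPM after osimertinib. Levels in PC9 separated fully from T0, and the log2 changes were -1.79 ± 0.09 (adjusted p = 3.71e-16) and -2.05 ± 0.09 (adjusted p = 4.24e-17). Its H1650 changes of 0.19 ± 0.08 (adjusted p = 0.0667) and 0.17 ± 0.08 (adjusted p = 0.103) did not pass the test. TRIM21, SP100 and SP110 rose wherever they passed the test, and SP100 did not pass it in PC9 with erlotinib.

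Of the remaining members, IFI35, IFI44, IFI44L, XAF1, EPSTI1 and LGALS3BP, all 6 rose in H1650 with both drugs. IFI44L, an antiviral protein of the same locus as IFI44, rose there from 28.1 and 24.5 CPM to 153 and 138 CPM after erlotinib and 164 and 154 CPM after osimertinib, by log2 2.47 ± 0.10 (adjusted p = 4.34e-17) and 2.59 ± 0.10 (adjusted p = 2.84e-17). In PC9 it had 0.252 and 0.691 CPM (5 and 14 reads), 0.806 and 1.02 CPM, and 1.76 and 1.85 CPM. The groups did not overlap, but the erlotinib change of 0.94 ± 0.39 (adjusted p = 0.0359) was lost without T0 replicate 1 or erlotinib replicate 2 (adjusted p = 0.436 and 0.19). IFI35, an interferon-induced leucine zipper protein, had 13.01 and 12.88 CPM at T0 in PC9 and 15.2 and 15.6 and 14.6 and 12.4 CPM after the drugs, where it did not pass the test, and went from 29.2 and 22.9 CPM to 87.8 and 88.8 and 104 and 88.7 CPM in H1650. XAF1, a pro-apoptotic factor, rose by log2 1.90 and 1.99 in PC9 and by much the same, 1.87 and 1.82, in H1650. It shares 2535 exon bases with PRAL on the opposite strand, and the strandedness of the counting is not given.

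The responses of both lines were then compared directly, by testing the H1650 change minus the PC9 change for each drug. With erlotinib the change was larger in H1650 for 18 members and smaller for 12, where 21.1% and 19.8% of all tested genes were larger or smaller and 40.8% differed. With osimertinib 15 members were larger and 13 smaller, where the shares of all genes were 21.5%, 20.5% and 41.9%. The median difference over the members was 0.26 on the log2 scale for erlotinib and 0.00 for osimertinib, and the latter changed sign with the scaling and with the library left out.

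**Figure D5:**
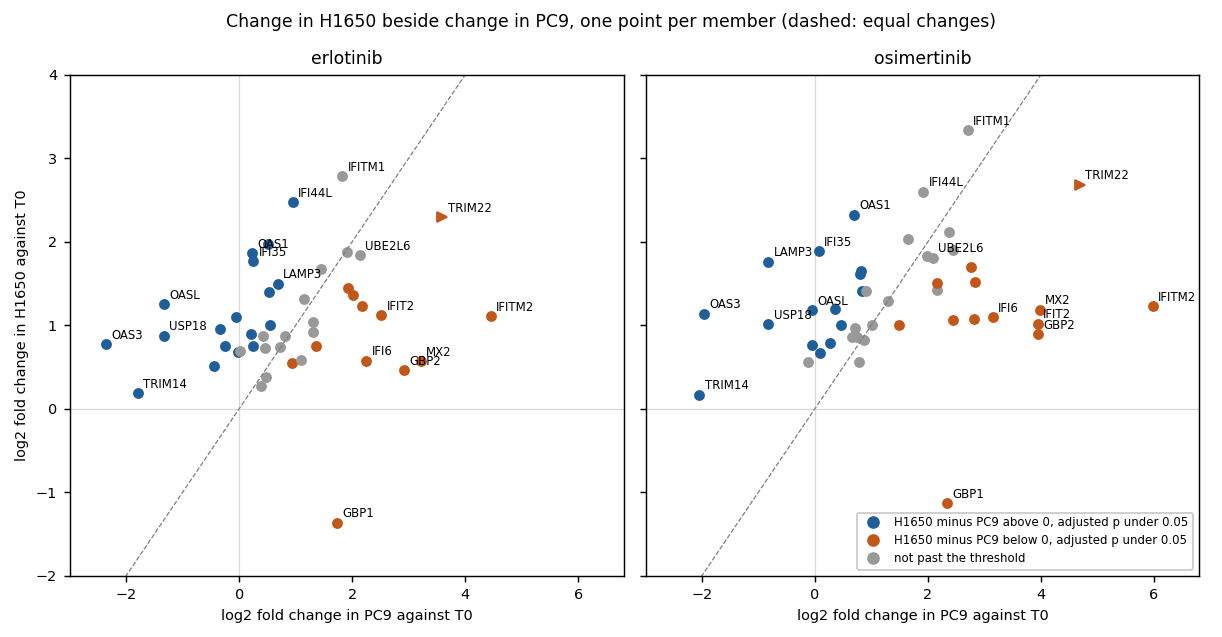
The log2 change in H1650 beside that in PC9 for each member, for erlotinib (left) and osimertinib (right), with a dashed line at equal changes, coloured points where the difference passed the test, triangles for TRIM22 at its PC9 bound, and RSAD2 and CMPK2 left out. OAS3, TRIM14 and USP18 lie above the line at the left, and MX2, GBP2 and GBP1 lie below it at the right.

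The largest difference in favour of H1650 belonged to OAS3, with 3.13 ± 0.12 (adjusted p = 1.3e-17) for erlotinib and 3.10 ± 0.12 (adjusted p = 1.86e-17) for osimertinib on the log2 scale. TRIM14 differed by 1.98 ± 0.12 (adjusted p = 9.42e-14) and 2.22 ± 0.12 (adjusted p = 1.43e-14). OASL (2.59) and USP18 (2.21) lay above TRIM14 with erlotinib, and LAMP3 (2.59) did with osimertinib. In favour of PC9, GBP1 differed by -3.09 ± 0.18 (adjusted p = 3.52e-14) and -3.48 ± 0.17 (adjusted p = 2.12e-15). TRIM22 and IFITM2 differed in the same direction. With the PC9 change of TRIM22 at its lower bound, its difference was at most -1.304 and -1.998, and with the PC9 change of IFITM2 taken from pooled counts its difference was -3.63 and -5.04. With erlotinib OAS3, OASL, USP18, PLSCR1 and SAMD9 fell in PC9 and rose in H1650, and with osimertinib OAS3, USP18 and LAMP3 did so. The share of all tested genes with such opposite calls was not computed. For XAF1 and DTX3L the difference between the lines passed the test with neither drug, under any alternative. For MX1, UBE2L6 and PARP9 it did not pass either, but it did under some alternatives. With upper quartile scaling the adjusted p was 0.0117 for UBE2L6 and 0.0208 for PARP9 with erlotinib, and without the filter it was 0.0301 for MX1 with osimertinib.

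Even after treatment most members stayed below the untreated level of H1650. Both PC9 erlotinib libraries lay below both H1650 T0 libraries for 38 members and above them for 5, MX2, GBP2, UBE2L6, DDX60L and TRIM21, where 42.9% of all tested genes were below and 43.6% above. After osimertinib 35 were below and 11 above, against 43% and 43.2% of all genes, with IFIT2, GBP3, DTX3L, SP100, EPSTI1 and LGALS3BP added. The gap stayed wide for IFI27 and BST2. These genes reached 1.18 and 1.12 CPM at most in PC9 and had at least 294 and 242 CPM in H1650.

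Osimertinib and erlotinib were given at doses of 0.1 and 10 µM, so that the comparison between them is one of treatments as applied and not of drugs at a matched dose. In PC9 24 members were higher after osimertinib than after erlotinib, 1 was lower and 22 did not pass the test, where 10.1% of all tested genes were higher, 6.41% lower and 16.6% different. In H1650 20 members were higher and none lower, where 5.02% were higher, 3.73% lower and 8.75% different. No member was called lower in H1650 by DESeq2 either, and 1 was at an unadjusted edgeR p under 0.05. Without osimertinib replicate 1 the H1650 count dropped to 11 members. The median log2 difference was 0.48 in PC9 and 0.26 in H1650.

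In PC9 the largest differences in favour of osimertinib among called members were those of OAS2, 1.87 ± 0.29 (adjusted p = 3.14e-05), and IFI27, 1.73 ± 0.45 (adjusted p = 0.0071), both at low counts. The IFI27 call was lost without erlotinib replicate 1 or osimertinib replicate 2 (adjusted p = 0.088 and 0.13). IFIT2 was higher by 1.43 ± 0.10 (adjusted p = 5.81e-12) and IFIT1 by 1.30 ± 0.16 (adjusted p = 1.1e-06). LAMP3 was the member that was lower, by a log2 difference of -1.51 ± 0.18 (adjusted p = 5.05e-07). In H1650 the differences were smaller, led by ISG15 with 0.64 ± 0.10 (adjusted p = 4.77e-05), IFIT1 with 0.58 ± 0.08 (adjusted p = 1.42e-05) and IFITM1 with 0.55 ± 0.10 (adjusted p = 0.000224). IFIT2 and OAS2 had log2 differences of -0.10 and 0.15 in H1650 and did not pass the test there.

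Transcription factors of the pathway were themselves among the responding genes. Of 7 factors (STAT2, IRF9, IRF1, IRF2, IRF3, IRF5 and IRF7), 6 rose in PC9 and 5 in H1650 with each drug, and the others did not pass the test. Among all tested genes 32.7% rose in PC9 with each drug, and 18% (erlotinib) and 17.8% (osimertinib) rose in H1650. STAT2 went from 22.4 and 21.6 CPM to 103 and 106 CPM and to 144 and 136 CPM in PC9, and from 114 and 120 CPM to 231 and 234 CPM and to 218 and 244 CPM in H1650. Its log2 changes were 2.25 ± 0.08 (adjusted p = 7.22e-19) with erlotinib and 2.67 ± 0.09 (adjusted p = 1.72e-20) with osimertinib in PC9 and 0.99 ± 0.07 (adjusted p = 2.56e-11) with erlotinib and 0.98 ± 0.07 (adjusted p = 3.36e-11) with osimertinib in H1650.

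IRF1, which activates many members, rose from 7.97 and 7.01 CPM to 26.5 and 28.3 CPM and to 33.2 and 36.7 CPM in PC9, and from 23.2 and 22.5 CPM to 41.6 and 38.7 CPM and to 53.7 and 50.2 CPM in H1650. On the opposite strand it shares 1716 exon bases with C5orf56 and 469 with AC116366.3, and the strandedness of the counting is not given. IRF9, the DNA-binding partner in ISGF3, stayed at 0.807 to 2.82 CPM in PC9 and 3.03 to 6.29 CPM in H1650, and its counts are uncertain because it shares 1838 exon bases with AL136295.5. IRF7, which amplifies interferon transcription, had 5.95 and 5.73 CPM at T0 in PC9 and 0.140 and 0.386 CPM in H1650, a log2 difference of -4.39 ± 0.34 (adjusted p = 5.09e-12) opposite in direction to that of most members. It rose in PC9 by log2 0.94 and 0.83. IRF2 rose by 0.78 to 1.00 in the 4 comparisons, and IRF3 rose in H1650 by 0.33 and 0.26 and did not pass the test in PC9. The H1650 calls of IRF3 were lost without T0 replicate 1 (adjusted p = 0.0637 with erlotinib, 0.18 with osimertinib), and that with osimertinib also without osimertinib replicate 2 (adjusted p = 0.189). The osimertinib call of IRF9 in H1650 was lost without the same libraries (adjusted p = 0.0669 and 0.176). IRF5 rose in PC9 by 0.68 and 0.46 and did not pass in H1650, and its osimertinib call was lost without T0 replicate 2 or osimertinib replicate 1 of PC9 (adjusted p = 0.255 and 0.23), with most H1650 libraries left out in turn (from 0.0523 to 0.0571) and by DESeq2 (adjusted p = 0.0924).

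Interferon transcripts themselves were near the limit of detection. The 10 ligand genes together gave 13 to 19 reads in each PC9 library and 25 to 42 in each H1650 library. None of the 2 that passed the filter, IFNE and IFNL1, changed with a drug. At T0 IFNL1 was higher in H1650, with 15 reads over both libraries beside 0 in PC9. At 0 reads in both PC9 libraries of T0, erlotinib and osimertinib were 8, 7 and 8 of the 10. Of 9 receptor and kinase genes, 4 rose in PC9 with erlotinib and 5 with osimertinib, while 1 rose and 2 fell in H1650 with erlotinib and 2 fell with osimertinib. Among all tested genes 32.7% rose in PC9 with each drug. In H1650 18% of all tested genes rose and 18.5% fell with erlotinib, and 17.8% rose and 17.9% fell with osimertinib. JAK1 was among the receptor and kinase genes that changed in both lines. It rose by log2 0.87 with erlotinib and 0.99 with osimertinib in PC9 and fell by 0.44 on the log2 scale with each in H1650.

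Marker lists were summed to check the labelled cell type. The 6 epithelial markers, among them EPCAM and the keratins, summed to between 6162 and 13298 CPM in all libraries. The 5 leukocyte markers summed in PC9 to 3.63 to 5.53 CPM at T0, 6.44 to 7.03 CPM after erlotinib and 17.4 to 18.8 CPM after osimertinib, nearly all of it from ITGAM, and to 1.96 to 3.96 CPM in H1650. PTPRC, CD3E and CD68, of the same list, had too few reads to pass the filter. The 6 fibroblast and endothelial markers summed in PC9 to 20.8 to 23.5 CPM at T0, 24.2 to 28.4 CPM after erlotinib and 42.5 to 51.4 CPM after osimertinib, and to 11.3 to 15.8 CPM in H1650. Both sums were higher after treatment in PC9, as were those of the members, and their part in the result was not tested.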

How the data were processed

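Per the labels, polyadenylated RNA was sequenced. Per the study's methods, reads were processed with the DolphinNext pipeline, and the authors deposited one table of featureCounts counts per gene for all 12 libraries, with gene lengths. GRCh38 and DESeq2 come from the submitters' processing notes. The aligner, annotation release and strandedness are not given in the sources used here. The deposited counts were analysed without change.

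Genes were filtered with filterByExpr, scaled by TMM and fitted with edgeR 4.0.16 (limma 3.58.1, R 4.3.3) in one model of the 6 groups, with 6 residual degrees of freedom, and contrasts were tested with the quasi-likelihood test and called at an adjusted p under 0.05 (Benjamini-Hochberg over 19108 genes). The fit was checked on simulated counts. Alternatives were DESeq2 1.42.0, other scalings, filters and thresholds, each line alone, a replicate block and each library left out. Bounds use 3 counts in each library of a group with 0 reads, and intervals (95%) on reads cover counting error only. Gene positions are those of GENCODE 29, and figures were drawn with Python 3.11.15 and matplotlib 3.10.9. Levels between genes were compared per kb of the deposited length.

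Members and lists were chosen with earlier results of these data known. Values per library were given, at a mean of at least 1 CPM, for the 4 largest and 2 smallest called changes in each drug comparison, the 4 largest line differences called with both drugs and the 4 largest at T0, as well as for the 3 largest drug differences in each line, members at 0 reads at T0 and 7 transcription factors of the pathway. Results for 2 genes of the context lists are not reported here. Other genes named (among them IFIT2, MX1, UBE2L6, USP18, OASL, LAMP3, PLSCR1, ISG20, PARP14, SAMD9, IFI35, XAF1, IFI6 and JAK1) were chosen after their values were seen. Same-numbered replicates were checked for pairing. Correlations of their deviations from the group means ran from -0.06 to 0.21 over 15 pairs of groups and were over 0.1 in 7, and no label ties a number to a shared batch, so that the numbers were not taken as pairs.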

Additional observations from a re-analysis of the deposited data

Results flagged for a closer look

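The change with a drug differed between the lines for the members below by the edgeR test of the difference itself (adjusted p under 0.05). Values are the H1650 change minus the PC9 change on the log2 scale.

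With erlotinib 30 members differed. The change was smaller in H1650 for 12 of them, with TRIM22 (-6.00), IFITM2 (-3.35), GBP1 (-3.09), MX2 (-2.65), GBP2 (-2.46), IFI6 (-1.68), IFIT2 (-1.40), SAMD9L (-0.95), PARP14 (-0.65), EPSTI1 (-0.61), IFIT3 (-0.48) and IFITM3 (-0.38). It was larger in H1650 for 18, with OAS3 (3.13), OASL (2.59), USP18 (2.21), TRIM14 (1.98), OAS1 (1.63), IFI44L (1.52), IFI35 (1.51), OAS2 (1.46), HERC5 (1.30), IFI44 (1.16), PLSCR1 (1.01), SAMD9 (0.96), DDX60 (0.87), LAMP3 (0.82), IFIT5 (0.70), SP100 (0.69), GBP3 (0.52) and ISG15 (0.45).

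With osimertinib 28 members differed. The change was smaller in H1650 for 13 of them, with TRIM22 (-6.70), IFITM2 (-4.75), GBP1 (-3.48), GBP2 (-3.06), IFIT2 (-2.93), MX2 (-2.79), IFI6 (-2.05), IFI27 (-1.75), EPSTI1 (-1.38), SAMD9L (-1.32), IFIT3 (-1.07), PARP14 (-0.65) and HERC6 (-0.48). It was larger in H1650 for 15, with OAS3 (3.10), LAMP3 (2.59), TRIM14 (2.22), USP18 (1.83), IFI35 (1.82), OAS1 (1.63), OASL (1.24), ISG15 (0.84), SP100 (0.84), PLSCR1 (0.81), DDX60 (0.81), TRIM21 (0.58), HERC5 (0.58), SAMD9 (0.55) and IFIT5 (0.53).

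The fitted values of TRIM22 and IFITM2 rest on 0 and 1 read in the PC9 T0 libraries and are no measure of size. The calls of 7 members with erlotinib (EPSTI1, IFI44L, IFIT3, IFIT5, IFITM3, ISG15 and OAS2) and 5 with osimertinib (HERC5, HERC6, IFI27, IFIT5 and TRIM21) were lost when a single library was left out. With erlotinib the adjusted p was 0.145 for IFIT3 and 0.322 for OAS2 without T0 replicate 1 of PC9, 0.563 for IFI44L and 0.126 for IFIT5 without T0 replicate 2 of PC9, 0.0702 for OAS2 and 0.0597 for IFIT5 without erlotinib replicate 1 of PC9, and 0.249 for IFIT3 without erlotinib replicate 2 of PC9. Without T0 replicate 1 of H1650 it was 0.0576 for IFITM3 and 0.0808 for IFIT3. The EPSTI1 call was lost without replicate 2 of PC9 T0 (0.212), PC9 erlotinib (0.333), H1650 T0 (0.108) or H1650 erlotinib (0.123), and that of ISG15 without any of 5 libraries, with 0.0724 and 0.122 for PC9 T0, 0.198 for PC9 erlotinib replicate 2, 0.221 for H1650 T0 replicate 2 and 0.0792 for H1650 erlotinib replicate 1.

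With osimertinib the adjusted p without T0 replicate 1 of PC9 was 0.221 for IFI27, 0.108 for HERC5, 0.148 for HERC6 and 0.123 for TRIM21, and without T0 replicate 2 of PC9 it was 0.358 for IFIT5 and 0.0675 for HERC5. Without osimertinib replicate 1 of PC9 it was 0.149 for IFIT5 and 0.277 for HERC5, and without osimertinib replicate 2 of PC9 it was 0.121 for IFI27, 0.0521 for HERC6 and 0.0748 for TRIM21. Leaving out an H1650 library also lost the calls of IFIT5 (0.0543 and 0.0926), HERC5 (0.078 and 0.12), HERC6 (0.0618 and 0.107) and TRIM21 (0.0573 to 0.0932). By DESeq2 EPSTI1 with erlotinib (0.0585) and TRIM21 with osimertinib (0.0692) were not called.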

How the results depend on the processing

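Every count of members that rose or fell against T0, at T0 between the lines or between the drug responses of the lines stayed within 1.5 times its value under all alternatives. The median log2 change in PC9 with osimertinib moved to 1.36 with upper quartile scaling, 1.202 without the filter, 0.8566 with at least 10 counts in every library, 0.9509 with each line fitted alone and 0.9913 to 1.414 when 1 library was left out. With at least 10 counts in every library, which removes the members with few PC9 reads, the medians were 1.112 in H1650 with osimertinib, 2.155 between the lines at T0 and 0.2249 for the osimertinib response of H1650 minus PC9. That last median changed sign to -0.05353 with upper quartile scaling, and to -0.04694 without T0 replicate 2 and -0.01957 without osimertinib replicate 1 of H1650 (range -0.04694 to 0.1729); the cause was not tested. Leaving out 1 library gave medians of 0.8976 to 0.9811 in H1650 with erlotinib, 1.134 to 1.258 in H1650 with osimertinib, 2.6 to 2.857 at T0, 0.3991 to 0.6242 for osimertinib against erlotinib in PC9 and 0.1951 to 0.2941 in H1650. Members higher with osimertinib than erlotinib in H1650 numbered 13 at a threshold of 0.01 and 11 to 21 with 1 library left out, and 1 was lower with each line fitted alone. Another scaling moved the median of all genes by at most 0.0907. Of 8217 values for single genes, 7967 kept their direction and call, 171 lost and 79 gained a call, and no called value changed direction.

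With the replicate number as a block, 2 members were lower with osimertinib than erlotinib in PC9 and 1 in H1650. Correlations of same-numbered libraries were over 0.1 in 7 of 15 pairs of groups, in all 3 within PC9 (0.104 to 0.167) but in 1 of 3 within H1650, and no label ties a number to a shared batch, so the numbers were not taken as pairs. The block added 20 calls of members over all comparisons and lost none, among them SP100 and IFI35 with erlotinib in PC9 (adjusted p = 0.00965 and 0.0463), TRIM14 with both drugs in H1650 (0.0133 and 0.0275) and the erlotinib line difference of UBE2L6 and PARP9 (0.024 and 0.0375). It moved the calls among all genes from 1672 to 2670 for osimertinib against erlotinib in H1650.

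Depth limits what can be said of RSAD2, CMPK2, TRIM22, IFITM2, IFI27 and BST2 in PC9.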

Other observations

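The sensors that detect viral RNA and DNA upstream of interferon production were tested for 9 of 10 listed genes. In H1650 7 rose and 1 fell with each drug, where 18% of all genes rose and 18.5% fell with erlotinib and 17.8% and 17.9% with osimertinib. In PC9 5 rose and 3 fell with erlotinib and 6 rose and 3 fell with osimertinib, where 32.7% of all genes rose with each drug and 29.1% and 28.7% fell. The RNA sensor gene DDX58 (RIG-I) had a log2 change of -0.21 (adjusted p = 0.144) with erlotinib in PC9 and rose by 0.63 with osimertinib, and it rose by 1.24 and 1.37 in H1650. DHX58, a regulator of that sensor, rose by 2.40 and 1.93 in PC9 and with smaller values of 1.83 and 1.73 in H1650. The DNA sensor CGAS fell in all 4 comparisons, with changes of -1.88 (erlotinib) and -1.98 (osimertinib) in PC9 and by -0.55 and -0.61 in H1650 on the log2 scale, whereas STING1, which acts after it, rose by 0.31 and 1.198 in PC9 and by 1.64 and 1.72 in H1650. EIF2AK2, the kinase PKR, fell in PC9 (-0.40 and -0.52) and rose in H1650 (0.64 and 0.65).

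Of 5 negative regulators of the pathway, 2 rose and 1 fell with each drug in PC9 and with erlotinib in H1650, and 2 rose with osimertinib in H1650, beside the shares of all genes given for the sensors. SOCS3, a feedback inhibitor of JAK kinases, had log2 changes of -1.33 and -0.70 in PC9, -0.71 in H1650 with erlotinib and -0.03 (adjusted p = 0.917) in H1650 with osimertinib.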
